A study of Bos taurus with 6 samples.

Results

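The small leucine-rich proteoglycans of cartilage were taken as 10 genes, DCN, BGN, FMOD, LUM, PRELP, ASPN, OGN, EPYC, CHAD and OMD, and their response to transforming growth factor β (TGF-β) was read from every probe set annotated to one of these symbols and to no other gene. That gave 12 of the 24016 probe sets tested, 2 each for BGN and PRELP and 1 for each of the other genes. A probe set is the group of short oligonucleotides on an Affymetrix array that together measure a transcript.

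The cultures were bovine articular chondrocytes, isolated with collagenase from full-thickness joint cartilage obtained from an abattoir and plated at high density in micromass culture. After a night in culture they were kept for 8 hours with TGF-β1 at 5 ng/ml (3 arrays) or with vehicle (3 arrays, called untreated). The cells came from 3 cows whose age was not given in the sources used here, and the arrays of each group carry the numbers 1 to 3. The arrays with the same number were treated as a pair, since they deviated from their group means together (r = 0.74, 0.69 and 0.85 across probe sets in pairs 1, 2 and 3), although the labels do not tie a number to a cow.

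These proteins are built on a core of leucine-rich repeats that binds the surface of collagen fibrils, and they set the thickness and spacing of the fibrils in cartilage, tendon, skin and cornea. Class I members (DCN, BGN, ASPN) carry chondroitin or dermatan sulfate chains or an acidic N-terminus, class II members (FMOD, LUM, PRELP, OMD) carry keratan sulfate or charged N-termini, class III holds OGN and EPYC, and CHAD belongs to class IV. Several of them also bind TGF-β itself, which lies in the matrix around the chondrocytes.

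No small leucine-rich proteoglycan was called changed after 8 hours of TGF-β1. Of the 12 probe sets, 0 rose and 0 fell in limma's paired fit at a Benjamini-Hochberg adjusted p under 0.05, where 2.44% of all probe sets rose and 3.46% fell (5.90% in all). An unadjusted p under 0.05 was reached by 0 of the 12, against 19.7% of all probe sets. A change of at least 2-fold with such a p, met by 1.19% of all probe sets, was met by 0 of the 12. The TGF-β1 and untreated arrays overlapped for all 12, where 6.11% of all probe sets had every TGF-β1 array above every untreated one and 4.91% below (11.0% in all). The 12 differences, TGF-β1 minus untreated, ranged between -0.25 (OGN) and 0.19 (ASPN) log2 units with a median of -0.08, against a median of 0.01 over all probe sets. Below 0 lay 10 of the 12 (83.3%), against 47.5% of all probe sets. These 10 include CHAD at -0.01, OMD at -0.03 and FMOD at -0.05, and 2 probe sets each of BGN and PRELP. In pairs 1, 2 and 3 taken singly, 8, 6 and 7 of the 12 lay below 0. As a size without its sign, the median difference was 0.14 log2 units for the 12 and 0.12 for all probe sets. Their adjusted p-values lay between 0.389 and 0.964, and after averaging the probe sets of each gene the lowest adjusted p over 9155 genes was 0.277, again for ASPN.

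The intervals of the paired fit bound how large a difference in array signal could have been missed, given the way limma sets the spread. Signal levels were not available, so how closely that signal followed the transcripts could not be checked. The 95% intervals of the 12 differences lay between -0.76 and 0.50 log2 units, which is a 0.589-fold to 1.42-fold change, so that all 12 intervals stayed inside a 2-fold change in either direction, as did those of 96.8% of all probe sets. Within 0.5 log2 units lay 9 of the 12 intervals (72.5% of all probe sets), and the exceptions were OGN, EPYC and 1 probe set of PRELP. These intervals draw each probe set's spread toward that of all probe sets. That narrows them where a probe set's own spread was wide, as for OGN, EPYC and that probe set of PRELP. Their own pair differences had SDs of 0.73, 0.81 and 0.35. The 2-fold bound rests on this step for them, and intervals from the 3 pairs alone, which would be wider there, were not computed. The fit on the groups alone, which ignores the pairing, called 0 of the 12 and 0% of all probe sets at an adjusted p under 0.05, and 0 of the 12 against 5.73% of all at an unadjusted one. The unequal-variance test that the methods name, run on the same values, likewise reached an unadjusted p under 0.05 for 0 of the 12 and 4.30% of all probe sets.

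**Figure D1:**
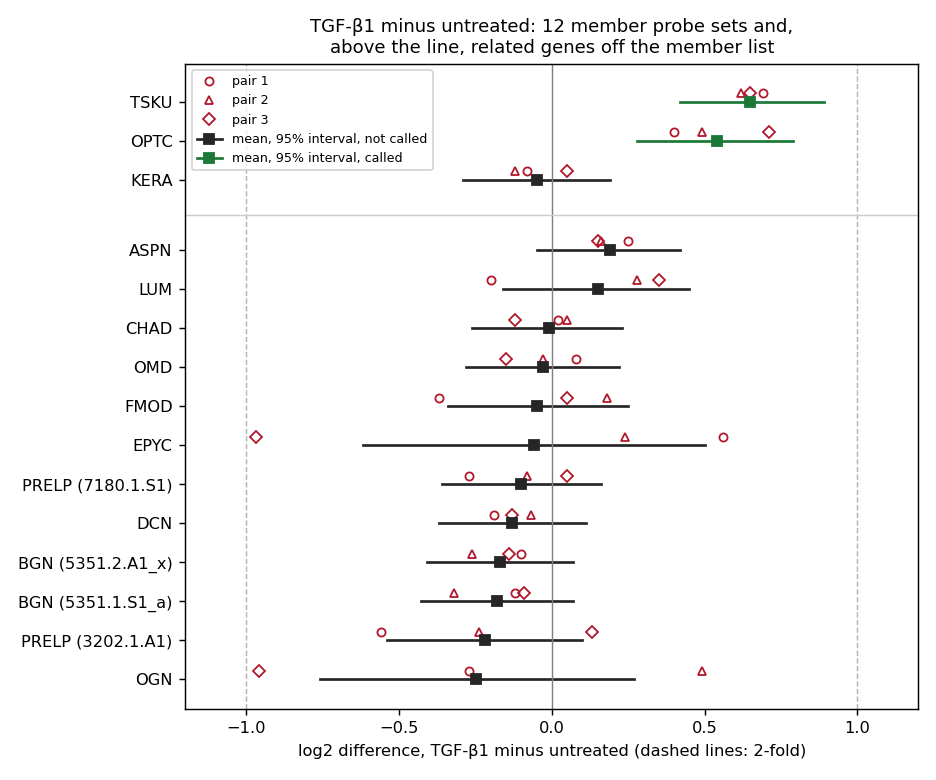
Differences in log2 units, TGF-β1 minus untreated, for the 12 probe sets of the small leucine-rich proteoglycans and, above the line, 3 related genes; open symbols are the 3 pairs, squares the paired estimates and bars their 95% intervals, green where the adjusted p was under 0.05. All 12 bars cross 0, while those of TSKU and OPTC do not.

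Each value below is a deposited log2 value that the authors had centred on the median of that probe set over the 6 arrays. It gives the distance from that median and not a level, so levels of different genes cannot be compared and the chondrocyte identity of the cultures could not be checked from marker levels.

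DCN encodes decorin, which carries a chondroitin or dermatan sulfate chain and binds collagen fibrils. DCN was at -0.61, 0.11 and -0.07 in TGF-β1 cultures 1 to 3, against -0.43, 0.18 and 0.07 in untreated cultures 1 to 3. It was lower with TGF-β1 in all 3 pairs, both arrays of number 1 were low, and the groups overlapped. The paired difference was -0.13 ± 0.105 (SE; n = 3 pairs), or 0.914-fold, with an adjusted p of 0.582 in limma.

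BGN encodes biglycan, the nearest relative of decorin, which carries chains of the same kind. The first BGN probe set (S1_a_at) stood at -0.06, 0.32 and -0.83 in TGF-β1 cultures 1 to 3, against 0.06, 0.65 and -0.74 in untreated cultures 1 to 3. The second (A1_x_at, whose suffix marks oligonucleotides that may also match other transcripts) stood at -0.05, 0.34 and -0.81 with TGF-β1, against 0.05, 0.60 and -0.67 untreated. Both were lower with TGF-β1 in all 3 pairs, and both had the pair of number 2 on top and that of number 3 at the bottom, so the groups overlapped. The paired differences were -0.18 ± 0.109 and -0.17 ± 0.106 (SE), and the adjusted p-values in limma were 0.436 and 0.452.

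ASPN encodes asporin, a relative with a run of aspartate residues in place of a chain, known in human cartilage to bind TGF-β and to hold back its action. It was at -0.03, 0.86 and 0.03 in TGF-β1 cultures 1 to 3, against -0.28, 0.70 and -0.12 in untreated cultures 1 to 3. ASPN was the only member whose probe set was higher with TGF-β1 in all 3 pairs, by 0.25, 0.16 and 0.15, and its groups overlapped because both arrays of number 2 were high. The difference was 0.19 ± 0.105 (SE; 95% interval -0.05 to 0.42), or 1.14-fold, with an adjusted p of 0.389 in limma, the lowest of the 12. Across the 12 probe sets, 4 ran the same way in all 3 pairs (DCN, both of BGN, and ASPN), against 40.7% of all probe sets.

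FMOD encodes fibromodulin, a keratan sulfate proteoglycan with sulfated tyrosines that binds collagen fibrils. It stood at -0.46, 0.99 and 0.03 in TGF-β1 cultures 1 to 3, against -0.09, 0.81 and -0.03 in untreated cultures 1 to 3. The pair of number 1 was lower with TGF-β1 and the others were higher, and the difference was -0.05 ± 0.13 (SE; adjusted p = 0.901 in limma). Without number 1 the FMOD difference was 0.11.

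LUM encodes lumican, the keratan sulfate proteoglycan that keeps collagen fibrils even in the cornea and is also made in cartilage. Its values were -0.10, 1.99 and -0.69 in TGF-β1 cultures 1 to 3, against 0.10, 1.70 and -1.04 in untreated cultures 1 to 3. Both arrays of number 2 were far above the other 4 arrays, and the pairs did not share a direction. The difference was 0.15 ± 0.133 (SE; 1.11-fold; adjusted p = 0.633 in limma).

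PRELP encodes a protein with an N-terminus rich in arginine and proline that binds heparan sulfate. The PRELP probe set with the ending A1_at was at -0.37, 1.56 and -0.19 in TGF-β1 cultures 1 to 3, against 0.19, 1.80 and -0.33 in untreated cultures 1 to 3. That with the ending S1_at was at -0.45, 0.53 and 0.02 with TGF-β1, against -0.17, 0.61 and -0.02 untreated. Both probe sets had the arrays of number 2 on top, were lower with TGF-β1 in pairs 1 and 2 and higher in pair 3, and overlapped between the groups. The differences were -0.22 ± 0.141 and -0.10 ± 0.113 (SE), with adjusted p-values of 0.452 and 0.712 in limma.

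OMD encodes osteomodulin, a keratan sulfate proteoglycan best known from bone. It was at 0.04, -0.08 and 0.51 in TGF-β1 cultures 1 to 3, against -0.04, -0.05 and 0.65 in untreated cultures 1 to 3. Here the arrays of number 3, and not those of number 2, were high in both groups. The difference was -0.03 ± 0.108 (SE; adjusted p = 0.923 in limma).

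OGN encodes osteoglycin, also called mimecan, a small protein found in bone and other connective tissue. It stood at -3.25, 0.25 and 1.12 in TGF-β1 cultures 1 to 3, against -2.98, -0.25 and 2.09 in untreated cultures 1 to 3. The arrays of number 1 were far below the rest in both groups, and the pair differences were -0.27, 0.49 and -0.96, so they did not share a direction. The difference was -0.25 ± 0.227 (SE; 95% interval -0.76 to 0.27; adjusted p = 0.633 in limma). It was -0.62 without number 2 (adjusted p = 0.171) and 0.11 without number 3 (adjusted p = 0.847).

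EPYC encodes epiphycan, a proteoglycan of growth-plate and epiphyseal cartilage. EPYC values were -1.09, 0.60 and -0.36 in TGF-β1 cultures 1 to 3, against -1.65, 0.36 and 0.61 in untreated cultures 1 to 3. Pairs 1 and 2 were higher with TGF-β1, by 0.56 and 0.24, and pair 3 was lower, at -0.97. The difference was -0.06 ± 0.246 (SE; adjusted p = 0.938 in limma), and without number 3 it was 0.40 (adjusted p = 0.185).

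CHAD encodes chondroadherin, which lacks such chains and binds integrins on the chondrocyte. It was at 0.01, 0.36 and -1.64 in TGF-β1 cultures 1 to 3, against -0.01, 0.31 and -1.52 in untreated cultures 1 to 3. The arrays of number 3 were low in both groups, and within each pair the values lay close together. Its difference of -0.01 ± 0.106 (SE; 95% interval -0.26 to 0.23; adjusted p = 0.964 in limma) was the smallest of the 12.

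**Figure D2:**
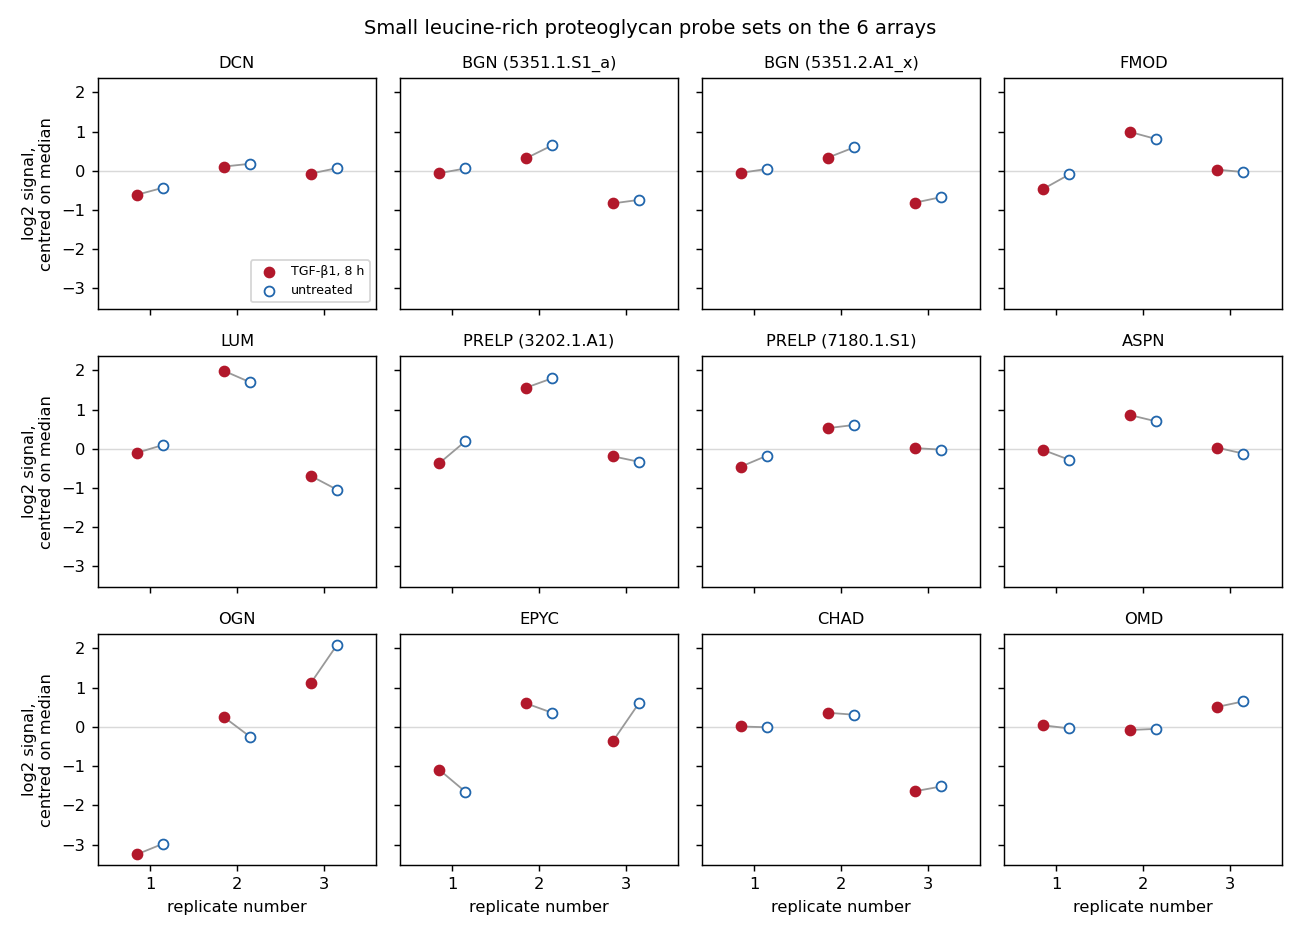
Centred log2 values of the 12 probe sets, 1 panel each, with TGF-β1 left of untreated and a line joining the arrays of the same number. Most lines are nearly flat and lie far apart, as for CHAD, where number 3 sits at -1.64 with TGF-β1 and -1.52 untreated.

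The proteoglycan transcripts varied far more between the numbered cultures than with TGF-β1. The range was taken over the 3 numbers, each averaged over its TGF-β1 and untreated array. Its median was 1.24 log2 units over the 12 probe sets, against 0.32 over all probe sets. For each of the 12 the range was at least 5.07 times the size of the TGF-β1 difference. That ratio was not summarised over all probe sets, where the median difference without its sign was 0.12, beside the median range of 0.32. The range was above 1 log2 unit for 8 of the 12 (66.7%), against 9.21% of all probe sets, from which dim ones could not be removed. Wide spreads were not particular to these genes. COL11A2 stood at -0.20, 1.21 and -2.43 in TGF-β1 cultures 1 to 3, against 0.20, 1.29 and -1.74 in untreated cultures 1 to 3. Other collagen probe sets spread little, such as 1 of COL6A2 at -0.13, 0.11 and 0.16 with TGF-β1, against -0.09, 0.09 and -0.25 untreated. The other COL6A2 probe set spread more, at -0.49, -0.06 and 0.29 with TGF-β1, against -0.88, 0.06 and 0.34 untreated. COL11A2 and COL6A2 were named here after their values were seen. Of the variation over the 6 arrays (sum of squares), the number took a median of 96.1% for the 12 probe sets and TGF-β1 0.975%, where the medians over all probe sets were 59.5% and 11.9%. With 1 array per number and group this is a description with no test, and in RNA of whole cultures fewer cells of a type and less RNA per cell cannot be told apart.

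OGN had the widest range of the 12, with means of -3.12, 0.00 and 1.60 for numbers 1 to 3, a 26.4-fold span that only 8 of all probe sets exceeded. LUM spanned 2.71 log2 units (6.56-fold), with means of 0.00, 1.85 and -0.87 for numbers 1 to 3, and 145 probe sets had a wider range. The narrowest ranges were those of DCN (0.66) and OMD (0.65), both still above the median of all probe sets. Number 2 gave the highest mean for 10 of the 12 probe sets (83.3%, against 37.8% of all probe sets), and the exceptions were OGN and OMD, which were highest in number 3. The lowest mean was that of number 1 for 6 probe sets (DCN, FMOD, the S1_at probe set of PRELP, ASPN, OGN, EPYC) and of number 3 for 5 (both of BGN, LUM, the other PRELP probe set, CHAD).

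Some members followed each other over the 6 arrays and others did not. Pearson's r, given here as a description over arrays that share cultures in pairs, was highest between the BGN probe sets and stood at 0.91 between those of PRELP. FMOD ran closest to PRELP (r = 0.94 and 0.98), LUM to 1 PRELP probe set (r = 0.95), and BGN to CHAD (r = 0.95 and 0.96). OMD ran opposite to CHAD (r = -0.98). DCN was closer to EPYC (r = 0.90) than to LUM (r = 0.38), its neighbour in the genome. BGN did not follow EPYC (r = 0.03 and 0.05). No r between other probe sets was computed to set beside these.

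**Figure D3:**
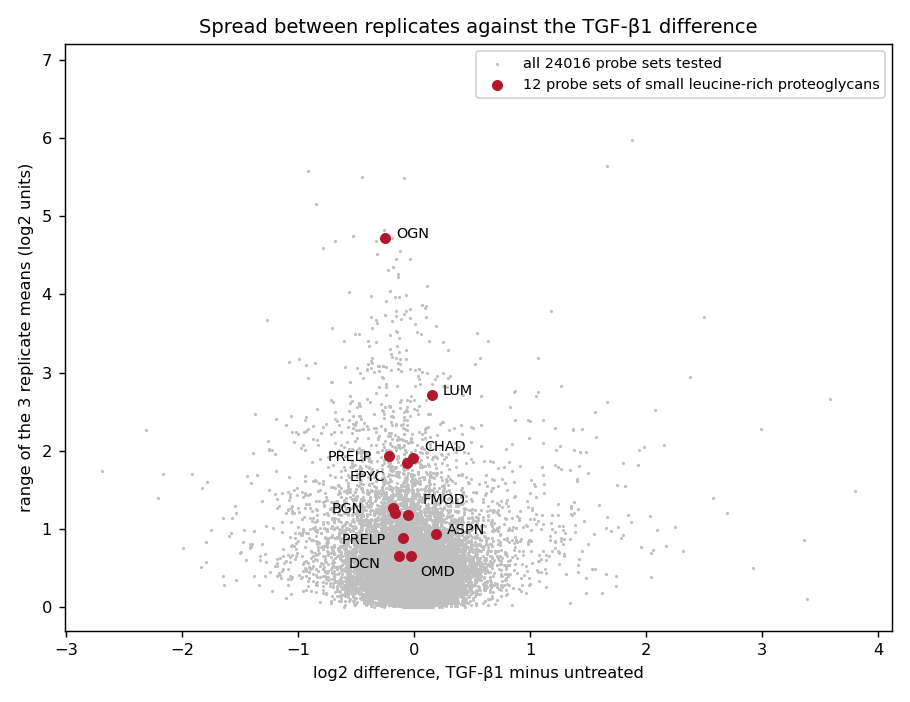
Range of the 3 means by culture number against the TGF-β1 minus untreated difference, both in log2 units, for all 24016 probe sets (grey) and the 12 of the small leucine-rich proteoglycans (red). The red points stand above a difference near 0, and OGN reaches a range of 4.72.

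Other transcripts moved with the numbers as well. The 22 measured genes of 26 cell cycle markers had a median over 30 probe sets of -0.27, -0.08 and 2.16 in TGF-β1 cultures 1 to 3, against -0.06, -0.08 and 2.48 in untreated cultures 1 to 3, so number 3 stood apart in both groups. The median of 7 of 12 chondrocyte markers (14 probe sets) was -0.20, 0.52 and -0.22 with TGF-β1 and -0.03, 0.17 and -0.18 untreated. That of the fibroblast markers (8 of 8 genes) was -0.23, 0.15 and -0.07 with TGF-β1 and -0.04, 0.25 and 0.01 untreated, so both lists, like most of the proteoglycans, were highest in number 2. The medians of the endothelial, leukocyte and hypertrophic or bone lists lay between -0.09 and 0.11 on every array. Single markers in them stood apart by number, named here after their values were seen: the macrophage genes CD68 (1.47 with TGF-β1 and 1.38 untreated) and CD14 (1.45 and 1.41 in the higher of its 2 probe sets) in number 1, and COL10A1 of hypertrophic cartilage (1.81 and 1.86) in number 3. Others of the same lists did not share this. In number 1 CSF1R was at -0.08 with TGF-β1 and 0.20 untreated, and TYROBP at -0.00 and -0.01. In number 3 SPP1 was at -0.14 and -0.19, and 1 probe set of IBSP was lowest there, at -1.85 and 0.25. The adipocyte markers (4 of 5 genes, 5 probe sets) had medians of -0.18, -0.15 and 0.01 with TGF-β1 and 0.06, -0.05 and 0.45 untreated. In number 3 FABP4, a fatty acid carrier of fat cells, was at 3.81 with TGF-β1 and 5.27 untreated (first probe set), and at 2.31 and 3.93 (second). The other genes of that list stood nearer their medians there: ADIPOQ was at -0.14 and -0.78, LPL at -0.64 and 0.22, and PPARG at 0.01 and 0.45. PPARG was still highest in number 3 in both groups. In numbers 1 and 2 it was at -0.18 and -0.52 with TGF-β1 and at 0.06 and -0.01 untreated. The smooth muscle markers (6 of 6 genes) had -0.04, 0.24 and 0.00 with TGF-β1 and 0.00, -0.15 and 0.13 untreated. With TGF-β1, 2 of the 14 chondrocyte marker probe sets rose (both of COMP) and 1 fell (CNMD), while 2 of the 14 of the fibroblast list fell (both of COL1A2). Over all probe sets 2.44% rose and 3.46% fell. In the other lists IBSP, a bone sialoprotein, fell by 2.17 in 1 of its 2 probe sets (limma adjusted p = 0.000112), FABP4 fell by 0.92 in 1 of 2, TAGLN rose by 0.89, and MCM4, CENPF and TYMS of the cell cycle list fell by 0.60, 0.56 and 0.53 in 1 probe set each, while 0 of the endothelial and leukocyte probe sets were called. The control transcripts added during labelling (18 probe sets) had a median of 1.53 on TGF-β1 array 2 and of -0.17 to 0.06 on the other 5. Whether any of these had a part in the differences between the numbers or with TGF-β1 was not tested.

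Most of these genes lie side by side in the bovine genome. In the order of protein-coding genes of the RefSeq annotation of assembly ARS-UCD2.0, 7 of the 10 were next to another member: LUM beside DCN, FMOD beside PRELP, and OGN, OMD and ASPN in a row. EPYC and LUM are separated only by KERA (keratocan, the keratan sulfate proteoglycan of the cornea), and OPTC (opticin, known from the vitreous of the eye) follows PRELP. Of 11 neighbours off the member list, 5 had a probe set and 1 was called, where 5.90% of all probe sets were. OPTC rose by 0.54, whereas the differences were -0.05 for KERA, -0.03 for BTG1 after DCN, -0.24 for CENPP before OGN and -0.20 for ACSF2 before CHAD (limma adjusted p = 0.864, 0.931, 0.261 and 0.459). The genes in the row of OGN, OMD and ASPN did not share a direction, at -0.25, -0.03 and 0.19.

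Some related genes off the member list were called changed. Among 8 further leucine-rich matrix genes, 3 had a probe set, and 2 of these rose, where 2.44% of all probe sets did. TSKU, which encodes tsukushi, a secreted relative that binds growth factors in the chick and frog, was at 0.38, 0.26 and 0.38 in TGF-β1 cultures 1 to 3, against -0.32, -0.36 and -0.26 in untreated cultures 1 to 3. All its TGF-β1 arrays lay above all untreated ones, and it rose by 0.65 ± 0.104 (SE; limma adjusted p = 0.00935, and 0.0501 without number 1). OPTC was at 0.14, 0.76 and -0.14 with TGF-β1, against -0.26, 0.27 and -0.86 untreated. It was higher within each pair although the groups overlapped, and it rose by 0.54 ± 0.113 (SE; limma adjusted p = 0.0274), a call lost without each number in turn (0.0664, 0.102 and 0.113).

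The genes that the small leucine-rich proteoglycans work with changed in part, where 2.44% of all probe sets rose and 3.46% fell. Of 29 probe sets for 11 of 16 fibril collagens, 1 rose and 6 fell, with a median of -0.14. COL11A1, a minor chain inside cartilage fibrils, fell in 4 of its 7 probe sets, by 0.68 log2 units or more (limma adjusted p = 0.00208 to 0.0261), and the other 3 were at -0.41, -0.33 and 0.02. COL1A2 fell in both of its probe sets, by 0.49 and 0.65. COL12A1, which sits on the fibril surface, rose by 0.68 in 1 of its 3 probe sets (limma adjusted p = 0.0177). In the list of large proteoglycans and their partners 4 of 23 probe sets rose and 2 fell, with a median of 0.13: PRG4 (lubricin) rose by 1.34 and 1.84 in 2 of its 4 probe sets, the others being at 0.35 and -0.10. COMP, which like several members binds collagen, rose by 0.79 and 1.05 in both of its probe sets, and CSPG4 fell by 0.77 and 0.60 in 2 of 3.

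Enzymes of the glycan chains changed in part, beside the 5.90% called over all probe sets. Of 20 probe sets for linker, chondroitin and dermatan sulfate enzymes 2 rose and 1 fell, with a median of 0.06. DSE, an epimerase that makes dermatan sulfate of the kind decorin and biglycan carry, rose by 1.34 (limma adjusted p = 0.000598). CHSY1, a chondroitin chain polymerase, rose by 0.67 in 1 of its 3 probe sets (limma adjusted p = 0.0295), the others being at -0.11 and 0.11. CSGALNACT2, which starts the chain, fell by 0.57 in 1 of 2 (limma adjusted p = 0.0226). Of 8 probe sets for keratan sulfate enzymes 2 rose, with a median of 0.17: ST3GAL1, a sialyltransferase, by 0.56 and B4GALT1, a galactosyltransferase, by 0.54 in 1 of its 2 probe sets (limma adjusted p = 0.0322 and 0.0487). In the list of tyrosine sulfation and sulfate supply 0 of 8 probe sets were called, with a median of -0.09. These cover 6 of the 9 listed genes, as PAPSS2, SLC26A2 and SLC35B3 had no probe set by symbol and were not analysed here, so the count says nothing of them. The smallest p was that of BPNT1, a phosphatase of the sulfate pathway, at -0.42 (limma adjusted p = 0.0601). A list of proteinases that cut these proteins, which also held PCOLCE and PCOLCE2 (not proteinases themselves), had 18 probe sets with a median of 0.11. In it ADAMTS4, an aggrecanase, alone was called and rose by 0.80 (limma adjusted p = 0.0157).

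The cultures did respond to TGF-β1. All 6 measured genes of a list of known TGF-β responses rose, among them TGFBI by 3.39, INHBA by 2.38, PMEPA1 by 2.32 and PTHLH by 2.04 log2 units (limma adjusted p = 0.000522, 0.000687, 0.000189 and 0.000522). That list was chosen with these results known and is no independent evidence. Outside it, 21 of the 109 listed probe sets related to the proteoglycans were called, beside 5.90% of all probe sets. Those lists were likewise chosen with earlier results known and are no independent evidence either. Of the 21, 5 (DSE, 2 of PRG4 and 2 of COL11A1) kept their calls without each number in turn. The other 16 lost the call without at least 1 number, where the highest adjusted p of each lay between 0.0501 (TSKU) and 0.228 (COL1A2).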

How the data were processed

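Total RNA (Trizol, DNase treated) was amplified in 2 cycles and hybridised to the Affymetrix GeneChip Bovine Genome Array, 3 TGF-β1 and 3 untreated. The deposited values are log2 values that the authors made in GeneSpring by Robust Multichip Average (version not given in the sources used here), centred per probe set on the median of the 6 arrays. They were used as deposited. Centring removes levels, so no filter on dim probe sets was possible. The small number of arrays limits the precision. Of 24128 probe sets, 112 controls were left out. Symbols came from the platform annotation (13292 probe sets with 1 symbol, 86 with several, 10638 with none), and 13263 were matched to RefSeq through Entrez IDs.

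Each probe set's TGF-β1 minus untreated difference came from a 2-sided limma test (version 3.58.1, in R 4.3.3, by lmFit and eBayes), with the replicate number as a block and Benjamini-Hochberg adjustment over 24016 probe sets at 0.05. The paper says that the cells of every cow were grown both ways, and same-numbered arrays correlated above 0.1 in all 3 pairs. Arrays of other numbers had r of -0.683 to 0.185, so 1 mismatched combination also passed 0.1. Deviations from a group's mean cancel out within the group, so high r for equal numbers by itself lowers r for unequal ones. P-values rest on the spread between these pairs (2 residual degrees of freedom), drawn toward that of all probe sets (6.72 prior degrees of freedom). The fit was also run on simulated data drawn from its own model, which cannot show how well that model holds for these 3 pairs. No array was a copy of another (at most 56 identical values). Gene positions in RefSeq were used for neighbours only.

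The members and lists, the paired fit and the naming rule were chosen with earlier results of these data known. The rule named every member, the genes next to one, and from each list the called genes (up to 4 per direction by smallest p where more than 5 were called) or, with none called, the one with the smallest p. Alternatives were the fit on the groups alone, each number left out, median scaling, quantile normalization, a robust prior, gene means, the unequal-variance test of the methods, and a threshold of 2-fold joined to an unadjusted p.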

Additional observations from a re-analysis of the deposited data

How the results depend on the processing

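With 3 pairs and values centred on the median, low expression could not be told from high. The 95% intervals of OGN and EPYC in limma reach 0.589-fold and 1.42-fold, with a spread drawn toward that of all probe sets. Their own pairs alone would allow more. The count of called small leucine-rich proteoglycan probe sets was 0 in each direction under every alternative run, in the block-free fit and with gene means too. The lowest adjusted p of a member was 0.171 (OGN without replicate 2), and unadjusted p-values under 0.05 appeared for 1 member without replicate 2 and for 2 (EPYC and 1 PRELP probe set, at -0.40) without replicate 3. Of 96 member differences under alternatives, 88 kept their direction and 8 reversed: FMOD was 0.11 without replicate 1, EPYC 0.40, OGN 0.11, CHAD 0.04 and OMD 0.03 without replicate 3, and OGN 0.14, EPYC 0.10 and OMD 0.01 after quantile normalization. The lowest values with 1 replicate left out were -0.16 for FMOD, -0.62 for OGN, -0.37 for EPYC, -0.05 for CHAD and -0.09 for OMD. The cause was not tested.

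Without the replicate block, limma called 0 probe sets higher and 0 lower of all 24016 (lowest adjusted p 0.214; 1377 at an unadjusted p under 0.05), against 585 and 832 with the block, and 0 and 0 of the related lists, against 12 and 9. The methods' unequal-variance test also called 0 and 0, over all probe sets and in the lists (1032 unadjusted). Leaving out each replicate gave 272 to 590 higher and 267 to 747 lower over all probe sets, and 6 to 9 higher and 2 to 10 lower in the lists. Quantile normalization gave 377 higher and 443 lower over all probe sets and 5 lower in the lists. The joint threshold of 2-fold and an unadjusted p gave 158 higher and 128 lower in the paired fit, and 65 and 62 in the methods' test. Of 168 values of the 21 called list probe sets, 85 kept their call, 83 lost it and 0 reversed.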
